A study of Mus musculus with 8 samples.

Results

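Cells that divide must make purine and pyrimidine nucleotides for RNA and DNA. The mRNAs of the enzymes that do so are described here in cytotoxic T cells treated with GC7, an inhibitor of eIF5a hypusination. The 33 genes were chosen by symbol as the enzymes of phosphoribosyl pyrophosphate (PRPP) synthesis, de novo purine and pyrimidine synthesis, deoxynucleotide supply, nucleoside and base salvage, and nucleotide kinases. All 33 symbols were found among the 55536 Ensembl genes of the count files (GRCm38, Ensembl 96), and 32 of them were among the 11189 genes that passed the filter on low counts. The filter kept genes with over 3 CPM, a gene's counts scaled to the library's total, in 4 or more of the 8 libraries. *Nme2*, at about 1 CPM, did not pass it.

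The cells were OT-1 CD8+ T cells from lymph nodes, which carry the OT-1 TCR transgene for the ovalbumin peptide SIINFEKL on a C57BL/6 and Rag-1KO background, from mice aged 5 to 12 weeks. Both groups were stimulated with 100 nM peptide for 2 days and then expanded in 20 ng/mL IL-2 for 2 days. The GC7 group (4 libraries) received 10 µM GC7 in the expansion phase, an inhibitor of deoxyhypusine synthase (DHPS), the enzyme that begins the conversion of a lysine of eIF5a into hypusine. The Mock group (4 libraries) received the acetic acid vehicle. The authors report that GC7 also has effects beyond eIF5a, and they count a build-up of cells in S phase among them. Such effects and those of reduced hypusination cannot be told apart in these libraries. All cells carry a receptor of a single specificity, so they stand for a clonal and not a polyclonal response, and GC7 was added after activation. The libraries of a group are given as biological replicates.

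Nucleotide synthesis starts from PRPP, an activated ribose. In the de novo purine pathway the ring is built on PRPP stepwise up to inosine monophosphate (IMP), from which AMP and GMP are made, whereas in the pyrimidine pathway the ring is made as orotate and then joined to PRPP to give UMP, the precursor of CTP. Ribonucleotide reductase turns ribonucleotides into deoxynucleotides for DNA, and salvage enzymes return bases and nucleosides to the pools. Resting T cells depend largely on salvage, and the de novo pathways are known to be induced when T cells are activated and begin to divide.

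Total counts ranged from 20045041 to 25284730 in the Mock libraries and from 17528776 to 23449164 in the GC7 libraries. The 11 markers of CD8+ T cells were all expressed, with a summed level of 9173 to 10719 CPM in Mock and 6134 to 7958 CPM in GC7 libraries. At an adjusted p under 0.01, 7 of the 11 were lower in GC7 (63.6%, beside 23.5% of all genes tested) and 1 was higher. Of 7 B cell markers, *Ms4a1*, *Pax5* and *Blnk* were at 0 in all libraries, while *Ighm* took the summed level of the list to 459.9 to 574 CPM in Mock and 269 to 294 CPM in GC7 libraries. Of 11 myeloid and dendritic markers, 8 stayed below 1 CPM in every library, including *Lyz2*, *Csf1r* and *Itgam*, and the summed level, mostly *H2-Ab1*, was 142 to 188 CPM in Mock and 50.4 to 58.6 CPM in GC7 libraries. Of the 3 tested markers of that list, *H2-Ab1* (-1.85 on the log2 scale) and *Xcr1* (-3.00) fell and *Cd74* rose (2.55). The 4 CD4+ T cell markers, with *Cd4* at or below 0.410 CPM, summed to 93.7 to 98.0 CPM in Mock and 76.7 to 85.8 CPM in GC7 libraries, mostly from *Zbtb7b*, which fell (-0.21). Of the 6 markers of stroma and endothelium 5 stayed below 1 CPM, with *Cdh5* at 0, and the sum, mostly *Pecam1*, was 52.3 to 57.0 CPM in Mock and 30.7 to 32.8 CPM in GC7 libraries. The 3 erythroid markers stayed below 1 CPM and the 3 NK cell markers summed to 1.90 to 3.19 CPM. In bulk RNA, fewer cells of a type and less RNA per cell cannot be told apart, and the part of these marker levels in the changes of the nucleotide genes was not tested. Within the groups, a pair of libraries stood apart. For 16 of the 32 tested genes the highest Mock library was replicate 2, and across all genes its deviation from the other Mock libraries fell with exon length (Spearman's rho = -0.62 across genes, which are not independent replicates). For 17 of the 32 the lowest GC7 library was replicate 3, and for 12 it was the highest. Results are therefore given with and without these libraries.

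After GC7, 14 of the 32 tested genes were higher and 4 were lower at an adjusted p under 0.01 (edgeR quasi-likelihood test, Benjamini-Hochberg over all genes tested), and 14 did not pass. Those 18 calls of 32 stood beside 46.6% of all genes called in either direction. The share that was higher, 43.8%, stood beside 23.0% of all genes tested, and the share that was lower, 12.5%, beside 23.5%. No member passed the threshold with more than a 2-fold change, which 8.48% of all genes tested did. The median log2 fold change (GC7 minus Mock) was 0.22 over the 32 genes and 0.018 over all genes. The CPM values of the groups did not overlap for 20 of the 32 genes (62.5%), close to the 55.6% of all genes tested. Without Mock replicate 2 the same 14 genes were higher and the same 4 were lower. Without GC7 replicate 3, 15 were higher, 13 of them from the 14, and the same 4 were lower. The 4 lower genes were *Samhd1*, *Impdh1*, *Ctps2* and *Dck*. With library totals in place of TMM factors, 17 were higher and 3 were lower. That scaling moved the median of all genes to 0.11 and the share of higher genes among all calls from 49.5% to 61.9%. No measure of RNA per cell was available, so a shift shared by most mRNAs would not be seen.

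**Figure D1:**
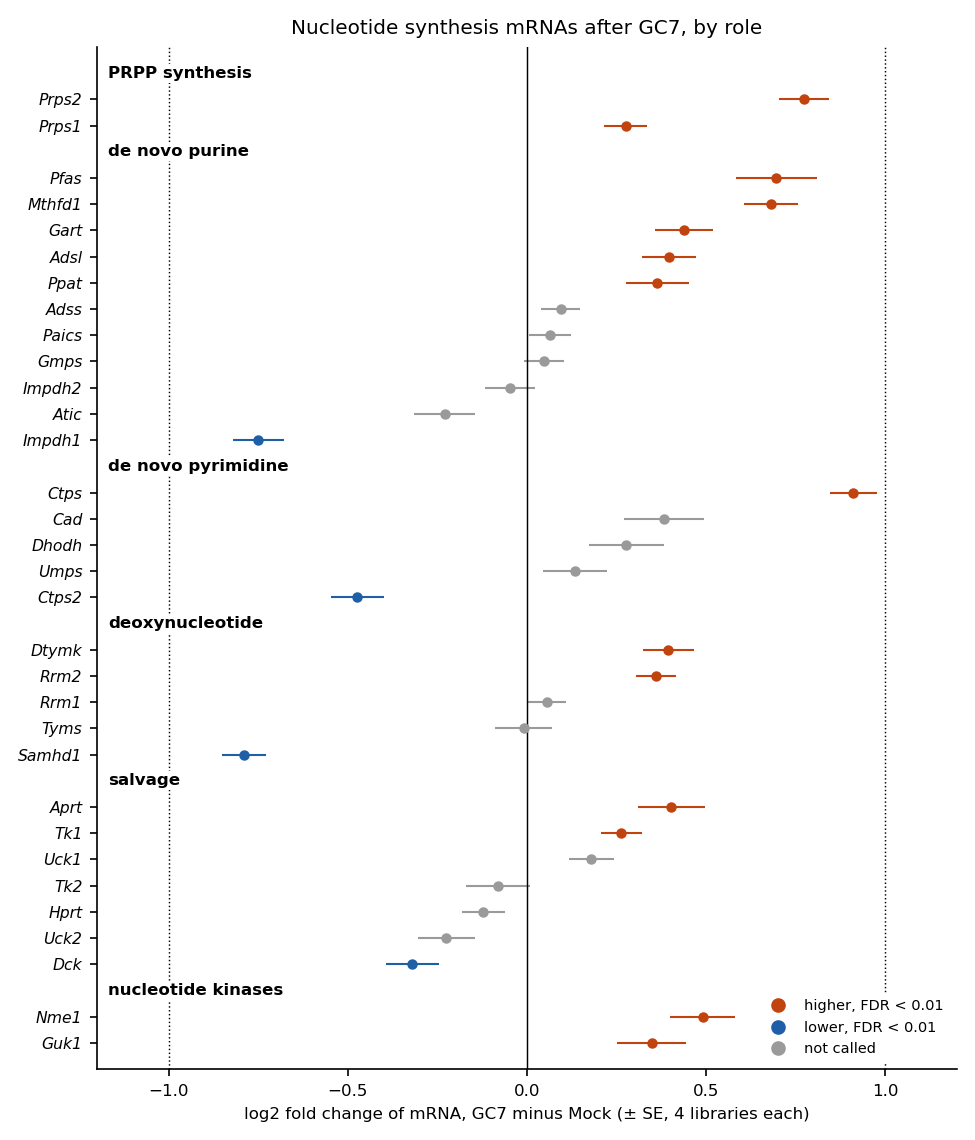
The x axis gives the log2 fold change of mRNA (GC7 minus Mock, with SE) for the 32 tested genes, grouped by role on the y axis, with dotted lines at a 2-fold change. The points run from -0.79 for *Samhd1* to 0.91 for *Ctps*, and the 14 higher genes (orange) and 4 lower genes (blue) all lie inside the dotted lines.

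By role, the 18 genes of the de novo pathways, PRPP synthesis included, held 8 higher and 2 lower genes, and the 7 salvage enzymes held 2 higher and 1 lower gene. Their median log2 fold changes were 0.28 and -0.081. The difference between these groups of genes was not tested. The share of higher genes was 44.4% in the de novo group and 28.6% in the salvage group, of which only the salvage share was near the 23.0% of all genes. Within the de novo group it was 45.5% for the purine genes and 20% for the pyrimidine genes, the latter also near the share of all genes.

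The promoter windows of RefSeq (GRCm38.p6, 250 bases before the start site and 50 from it on) were searched on both strands for 6 motifs, and 31 of the 33 genes had a window (*Pfas* and *Dhodh* are named only). The motifs were the E-box CACGTG, the E2F letters TTTCGCGC, TTTGGCGC, TTTCCCGC and TTTGCCGC, the palindromic NRF1 motif, the NF-Y letters CCAAT, the ATF4 letters TGATGNAAT and the GC box GGGCGG. E2F and GC box letters can overlap. These genes had 39 windows, beside 32851 windows in all. The E-box was in 17.9% of the 39 windows (6 genes) and 7.15% of all windows, E2F letters in 5.13% (2 genes) and 2.26%, and the NRF1 motif in 7.69% (2 genes) and 0.971%. The NRF1 site of *Uck1* was counted in each of its overlapping windows. All windows were not limited to genes expressed in these cells, whereas nearly all of the 33 genes passed the filter on low counts, so these shares do not compare like with like. NF-Y letters were in 30.8% (12 genes) and 37.4%, and the GC box in 69.2% (25 genes) and 35.7%. No window of the 31 genes held the ATF4 letters, which 0.965% of all windows held. Stretches that end at the base before the start site are printed with each gene, from 5′ to 3′ on the gene's strand, with capitals for all of these letters but the NRF1 motif, which is given by its position. A match is a description of the letters and not of a bound site.

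Both genes of PRPP synthesis rose after GC7. *Prps1* and *Prps2* encode the PRPP synthetases, which activate ribose 5-phosphate, and both were higher. *Prps2* (chrX:167346322-167382749) was at 71.1, 60.3, 72.9 and 66.5 CPM in Mock replicates 1 to 4 and at 116, 113, 122 and 112 CPM in GC7 replicates 1 to 4, a 1.71-fold increase (log2 fold change 0.77 ± 0.069 (SE), adjusted p = 1.53e-06). Every GC7 library was above every Mock library by a wide margin. *Prps1* (chrX:140456613-140476140) went from 67.0, 64.1, 66.9 and 62.2 CPM to 83.3, 76.2, 80.3 and 75.2 CPM (log2 fold change 0.28 ± 0.060 (SE), adjusted p = 0.00175). These groups did not overlap either, but the change was smaller, and without Mock replicate 4 the adjusted p was 0.0109. A close copy of *Prps1*, *Prps1l3* (93.2% identity), held 5470 counts in all libraries against 12117 for *Prps1*, so the level of *Prps1* is uncertain. The promoter stretches of the pair are shown because their mRNAs changed to different degrees. *Prps1* (chrX:140456483-140456602, plus strand) held 3 GC boxes and an NF-Y match, and *Prps2* (chrX:167382750-167382869, minus strand) held none of the motifs in this stretch.
Prps1: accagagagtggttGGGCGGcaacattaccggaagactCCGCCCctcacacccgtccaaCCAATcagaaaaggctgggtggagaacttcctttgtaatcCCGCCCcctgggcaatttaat
Prps2: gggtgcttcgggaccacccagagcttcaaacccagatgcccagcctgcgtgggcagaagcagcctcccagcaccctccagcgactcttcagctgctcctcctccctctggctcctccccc

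The share of *Prps1* in the summed CPM per kb of exon of the pair was 64.7, 67.4, 64.1 and 64.5% in Mock libraries and 58.3, 56.7, 56.1 and 56.6% in GC7 libraries. The log2 ratio of *Prps1* to *Prps2* fell by 0.50 (two-sided exact permutation test over the 8 libraries, p = 0.0286, adjusted p = 0.0343 over the 6 pairs tested). For 4 against 4 libraries, 0.0286 is the smallest p that this test can give. It was fixed here, since the values of the single genes put every Mock ratio above every GC7 ratio, however libraries were matched. The test of this ratio therefore adds nothing to the results of the single genes. A ratio within a library does not depend on the scaling between libraries.

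In de novo purine synthesis, the mRNAs of the steps from PRPP to IMP and those of the steps from IMP to AMP and GMP gave different counts. Of the 6 genes from PRPP to IMP (*Ppat*, *Gart*, *Pfas*, *Paics*, *Adsl* and *Atic*), 4 were higher and none was lower (66.7% higher, beside 23.0% of all genes). Of the 4 genes after IMP (*Impdh1*, *Impdh2*, *Gmps* and *Adss*), none was higher and *Impdh1* was lower. That share of lower genes, 25%, was near the 23.5% of all genes tested. *Adsl* also acts after IMP, in the AMP branch, and is counted with the first group. The remaining gene, *Mthfd1*, supplies folate-bound carbon units to the purine ring and was higher. The difference between these groups was not tested.

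*Ppat* (chr5:76913249-76951578) encodes the amidotransferase of the committed step, where glutamine nitrogen is placed on PRPP. It was at 63.9, 52.4, 58.9 and 56.9 CPM in Mock and 83.6, 78.9, 64.9 and 70.8 CPM in GC7 replicates 1 to 4 (log2 fold change 0.36 ± 0.088 (SE), adjusted p = 0.00352). The highest Mock library and GC7 replicate 3 were nearly level, and the call was lost without Mock replicate 4, GC7 replicate 1 or GC7 replicate 2 (adjusted p = 0.0136, 0.0127 and 0.0121). *Gart* encodes a trifunctional enzyme of several early ring steps and went from 98.5, 84.6, 91.7 and 95.2 CPM to 136, 134, 108 and 123 CPM (log2 fold change 0.44 ± 0.081 (SE), adjusted p = 0.000549). *Pfas* encodes the synthase that adds the next glutamine nitrogen and went from 65.0, 51.4, 62.8 and 69.1 CPM to 116, 106, 80.5 and 98.5 CPM, or 1.62-fold (log2 fold change 0.70 ± 0.11 (SE), adjusted p = 0.000224). For both genes the groups did not overlap, with GC7 replicate 3 the lowest GC7 library.

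*Adsl*, for adenylosuccinate lyase, was at 69.9, 75.0, 69.2 and 71.9 CPM in Mock and at 97.7, 101, 80.1 and 97.9 CPM in GC7 libraries (log2 fold change 0.40 ± 0.075 (SE), adjusted p = 0.000698). *Mthfd1* was at 87.1, 80.6, 80.3 and 84.1 CPM and 144, 142, 115 and 131 CPM, a 1.60-fold increase (log2 fold change 0.68 ± 0.075 (SE), adjusted p = 9.03e-06). GC7 replicate 3 was again the lowest of its group for both, and still above all Mock libraries. *Paics*, which encodes the bifunctional enzyme of the steps between PFAS and ADSL, ranged from 258 to 273 CPM in Mock and from 270.4 to 302 CPM in GC7 libraries (log2 fold change 0.065 ± 0.059 (SE), adjusted p = 0.359). *Atic*, for the enzyme that closes the ring to IMP, ranged from 145 to 160.3 CPM and from 108 to 146 CPM (log2 fold change -0.23 ± 0.086 (SE), adjusted p = 0.0350). Neither passed the threshold, and in both the groups overlapped.

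*Ppat* and *Paics* lie head to head on chromosome 5 on opposite strands, with exons that overlap at the start sites, and *Ppat* passed the threshold whereas *Paics* did not. The strand setting of the counting is not given in the sources used here, so reads of the overlap cannot be assigned. The stretch before *Ppat* (chr5:76951579-76951798, minus strand) held 2 E2F matches, the second of which overlaps a GC box, and a further GC box. The stretch before *Paics* (chr5:76951082-76951301, plus strand) held an E-box, a GC box and an NF-Y match. *Atic* (chr1:71557096-71557155, plus strand) is shown for its E-box next to the start site.
Ppat: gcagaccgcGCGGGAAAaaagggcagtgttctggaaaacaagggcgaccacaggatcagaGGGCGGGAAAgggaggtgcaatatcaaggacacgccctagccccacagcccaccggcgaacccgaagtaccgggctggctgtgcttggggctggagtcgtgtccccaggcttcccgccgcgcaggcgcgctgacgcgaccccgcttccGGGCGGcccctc
Paics: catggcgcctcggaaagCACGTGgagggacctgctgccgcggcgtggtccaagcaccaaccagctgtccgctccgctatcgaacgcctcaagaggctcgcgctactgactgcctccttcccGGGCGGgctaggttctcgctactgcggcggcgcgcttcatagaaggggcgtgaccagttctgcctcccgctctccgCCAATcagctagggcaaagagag
Atic: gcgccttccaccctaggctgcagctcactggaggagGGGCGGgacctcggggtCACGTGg

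After IMP, the genes of IMP dehydrogenase, the rate-limiting enzyme of GMP synthesis, moved apart. *Impdh1* (chr6:29200434-29216364) was at 134, 154, 139.8 and 141 CPM in Mock and 88.5, 87.1, 74.6 and 87.9 CPM in GC7 replicates 1 to 4, 1.68-fold lower in GC7 (log2 fold change -0.75 ± 0.071 (SE), adjusted p = 2.53e-06). No GC7 library came near the Mock range. *Impdh2*, the isoform usually induced in proliferating lymphocytes, was at 331, 375, 331 and 332 CPM and 345, 326, 303 and 349 CPM (log2 fold change -0.047 ± 0.069 (SE), adjusted p = 0.575), and its groups overlapped. Its sign turned positive with library totals (0.049). *Gmps* (log2 fold change 0.047 ± 0.055 (SE), adjusted p = 0.475) and *Adss* (log2 fold change 0.094 ± 0.055 (SE), adjusted p = 0.162), for the enzymes that complete GMP and begin AMP synthesis, did not pass the threshold. *Gmps* ranged from 112 to 119.5 CPM in Mock and from 113 to 122 CPM in GC7 libraries, and *Adss* from 113 to 121 CPM and from 119 to 128 CPM.

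*Impdh1* made up 27.5, 27.7, 28.3 and 28.4% of the summed CPM per kb of the pair in Mock libraries and 19.3, 19.9, 18.7 and 19.0% in GC7 libraries. The log2 ratio of *Impdh1* to *Impdh2* fell by 0.71 (two-sided exact permutation test, p = 0.0286, adjusted p = 0.0343 over the 6 pairs tested), with an SD of 0.032 in Mock and 0.049 in GC7 libraries. However libraries were matched within a group, the values of the single genes put every Mock ratio above every GC7 ratio. This p was therefore fixed and adds nothing to the decrease of *Impdh1*. The pseudogene *Impdh2-ps* (99.7% identity) held 2828 counts against 57066 for *Impdh2*, whose exons also overlap those of *Ndufaf3* on the other strand. The stretch before *Impdh1* (chr6:29216365-29216484, minus strand) held 3 GC boxes and that before *Impdh2* (chr9:108560316-108560435, plus strand) an E-box.
Impdh1: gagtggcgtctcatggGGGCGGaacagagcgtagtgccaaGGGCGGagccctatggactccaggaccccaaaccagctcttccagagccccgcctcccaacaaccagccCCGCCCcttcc
Impdh2: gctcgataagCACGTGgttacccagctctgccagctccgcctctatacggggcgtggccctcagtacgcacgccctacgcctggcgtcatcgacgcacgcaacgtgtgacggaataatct

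**Figure D2:**
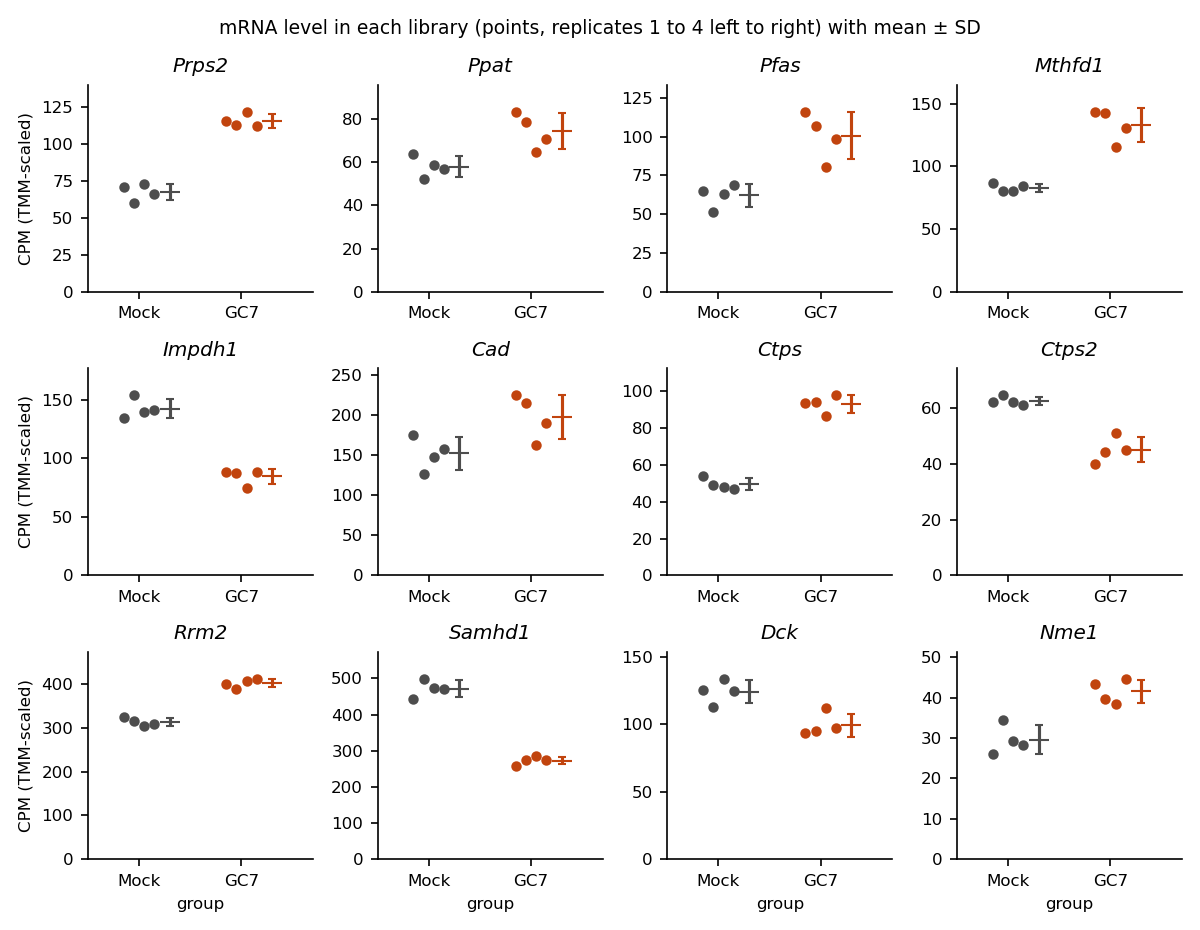
Each panel gives the CPM (y axis, from 0) of a gene in the 4 Mock (grey) and 4 GC7 (orange) libraries, with the mean and SD beside the points. The groups are apart in 11 of the 12 panels and overlap for *Cad*, where GC7 replicate 3 (163 CPM) lies below Mock replicate 1 (176 CPM).

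In pyrimidine synthesis, the genes that passed the threshold were those of the last step, from UTP to CTP. Of the 5 genes, *Ctps* was higher, *Ctps2* was lower and *Cad*, *Dhodh* and *Umps* did not pass the threshold. The shares that were higher and lower, 20% each, were near the 23.0% and 23.5% of all genes tested. *Cad* (chr5:31054780-31078479), for the trifunctional protein that catalyses and controls the entry steps, was at 176, 126, 148 and 158 CPM in Mock and at 225, 215, 163 and 190.1 CPM in GC7 libraries (log2 fold change 0.38 ± 0.11 (SE), adjusted p = 0.0110). It lay just outside the threshold and passed it in 7 of the 14 alternatives, with adjusted p between 1.21e-05 and 0.0361. The other gene nearest to the threshold was *Guk1*, just inside it at 0.00751. *Dhodh*, for the mitochondrial dehydrogenase that makes orotate, ranged from 19.8 to 24.1 CPM in Mock and from 20.9 to 28.4 CPM in GC7 libraries (log2 fold change 0.28 ± 0.10 (SE), adjusted p = 0.0358). Its adjusted p was 0.00222 without GC7 replicate 3 and 0.00738 with library totals. *Umps*, for the enzyme that joins orotate to PRPP and yields UMP, ranged from 50.1 to 55.7 CPM and from 47.5 to 63.4 CPM (log2 fold change 0.13 ± 0.090 (SE), adjusted p = 0.218).

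CTP synthase, which aminates UTP to CTP, is encoded by *Ctps* and *Ctps2*, and CTPS1 is known to be needed for the expansion of activated lymphocytes. *Ctps* (chr4:120539868-120570276) had the largest change of all 32 genes. It was at 54.0, 48.9, 48.1 and 46.9 CPM in Mock replicates 1 to 4 and at 93.8, 94.1, 86.5 and 97.8 CPM in GC7 replicates 1 to 4, 1.88-fold higher (log2 fold change 0.91 ± 0.066 (SE), adjusted p = 2.54e-07). With library totals, its change just passed 2-fold, at a log2 fold change of 1.01. *Ctps2* (chrX:162901238-163032508) was at 62.5, 64.7, 62.4 and 61.3 CPM and 40.1, 44.4, 51.3 and 45.2 CPM, 1.39-fold lower (log2 fold change -0.47 ± 0.075 (SE), adjusted p = 0.000177). In neither gene did the groups overlap, and GC7 replicate 3 had the smallest change of the GC7 libraries in both.

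The ratio of *Ctps* to *Ctps2* was the isoenzyme ratio that moved most. *Ctps* made up 55.2, 51.8, 52.3 and 52.1% of the summed CPM per kb of the pair in Mock libraries, or 52.9% ± 1.56 (SD, n = 4), and 76.9, 75.1, 70.6 and 75.5% in GC7 libraries, or 74.5% ± 2.75 (SD, n = 4). In log2 terms the ratio rose by 1.39, which is 2.62-fold (two-sided exact permutation test, p = 0.0286, adjusted p = 0.0343 over the 6 pairs tested). Since neither gene overlapped between the groups and they moved in opposite directions, this p had to be the smallest possible. It adds nothing to the results of the single genes. Without each library in turn the difference lay between 1.33 and 1.49. The stretch before *Ctps* (chr4:120570277-120570396, minus strand) held the NRF1 motif, from position -65 counted from the start site, and a GC box, and that before *Ctps2* (chrX:162902051-162902170, plus strand) an NF-Y match.
Ctps: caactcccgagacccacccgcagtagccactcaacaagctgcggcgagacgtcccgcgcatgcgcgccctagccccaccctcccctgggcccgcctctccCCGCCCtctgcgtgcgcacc
Ctps2: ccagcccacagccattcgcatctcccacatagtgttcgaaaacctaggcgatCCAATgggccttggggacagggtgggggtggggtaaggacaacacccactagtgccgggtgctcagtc

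**Figure D3:**
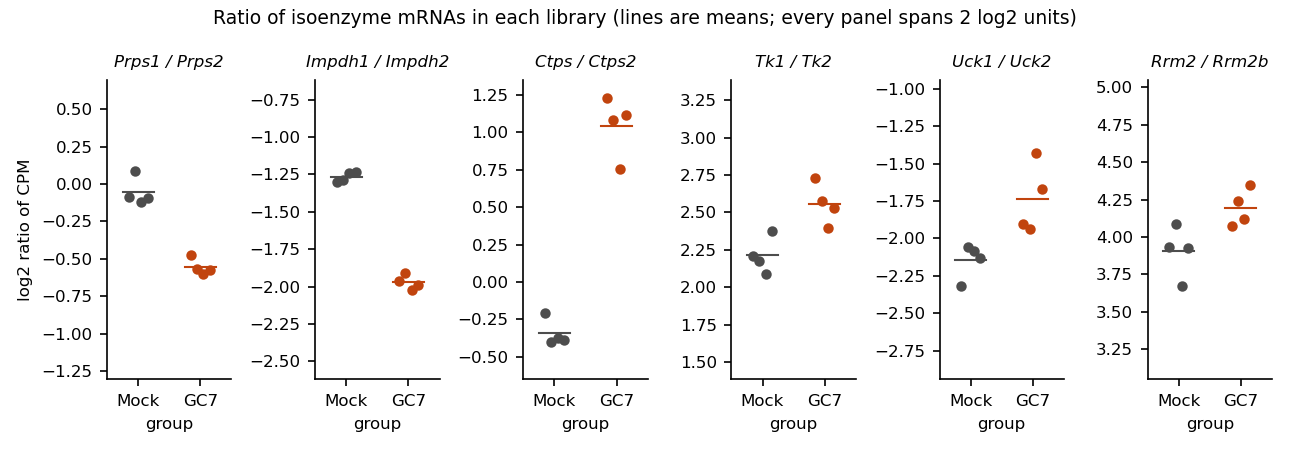
Points give the log2 ratio of the CPM of paired isoenzyme genes (y axis) in each Mock (grey) and GC7 (orange) library, and lines give group means. Every panel spans the same range of log2 units, so the 1.39 shift of *Ctps* to *Ctps2* can be read against the 0.34 shift of *Tk1* to *Tk2*, and only *Rrm2* to *Rrm2b* shows overlapping groups.

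Among the 5 genes of deoxynucleotide supply, the mRNAs for the regulatory subunit of ribonucleotide reductase and for thymidylate kinase rose, and that for the enzyme that destroys deoxynucleotides fell. *Rrm2*, for the small subunit whose level limits reductase activity in S phase, was at 326, 316, 304 and 309 CPM in Mock and at 401, 390.5, 408 and 412 CPM in GC7 libraries (log2 fold change 0.36 ± 0.056 (SE), adjusted p = 0.000142). *Rrm1*, for the large subunit, was at 321, 304, 319.7 and 316 CPM and 331, 333, 330.2 and 316 CPM (log2 fold change 0.055 ± 0.054 (SE), adjusted p = 0.402). The groups did not overlap for *Rrm2* and overlapped for *Rrm1*. *Samhd1*, for the phosphohydrolase that cleaves deoxynucleotide triphosphates, was at 442, 499, 473 and 471 CPM in Mock replicates 1 to 4 and at 258, 274, 285 and 273 CPM in GC7 replicates 1 to 4, 1.73-fold lower (log2 fold change -0.79 ± 0.062 (SE), adjusted p = 4.74e-07). The decreases of *Samhd1* and *Impdh1* (-0.75) were the largest of the 32 genes and differed from each other by less than the SE of either. For *Samhd1* the lowest Mock library (442.5 CPM) lay far above the highest GC7 library (285 CPM).

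*Dtymk*, for thymidylate kinase, was at 75.5, 90.6, 78.4 and 77.5 CPM in Mock and 103, 100.4, 113 and 107 CPM in GC7 libraries (log2 fold change 0.39 ± 0.071 (SE), adjusted p = 0.000471). *Tyms*, for thymidylate synthase, which makes dTMP from dUMP, was at 39.2, 47.7, 38.4 and 41.7 CPM and 42.1, 44.1, 38.8 and 41.0 CPM (log2 fold change -0.0090 ± 0.080 (SE), adjusted p = 0.930). The groups were apart for *Dtymk*, and for *Tyms* the highest and the lowest library of all 8 were both Mock libraries. Both genes held an E-box in the promoter window, *Dtymk* (chr1:93801935-93802094, minus strand) with an NF-Y match and *Tyms* (chr5:30073626-30073705, minus strand) with a GC box.
Dtymk: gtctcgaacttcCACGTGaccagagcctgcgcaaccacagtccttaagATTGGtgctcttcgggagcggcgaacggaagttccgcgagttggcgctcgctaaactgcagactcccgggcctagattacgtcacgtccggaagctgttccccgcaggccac
Tyms: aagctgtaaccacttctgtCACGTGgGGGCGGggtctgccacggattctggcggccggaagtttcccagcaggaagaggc

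The p53-induced small subunit *Rrm2b*, which is not one of the 33 genes, was much lower than *Rrm2*, which made up 97.7% to 98.2% of the summed CPM per kb of the pair in Mock and 98.2% to 98.5% in GC7 libraries. The log2 ratio of *Rrm2* to *Rrm2b* differed by 0.29 (GC7 minus Mock), with overlapping groups (two-sided exact permutation test, p = 0.0571, adjusted p = 0.0571 over the 6 pairs tested).

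Of the 7 salvage genes, *Aprt* and *Tk1* were higher and *Dck* was lower. *Aprt*, which returns adenine to AMP, was at 96.4, 117, 91.1 and 91.1 CPM in Mock and 128, 114, 144 and 137 CPM in GC7 libraries (log2 fold change 0.40 ± 0.094 (SE), adjusted p = 0.00276). It was the only one of the 18 called genes whose groups overlapped, since Mock replicate 2 lay above GC7 replicate 2, and its call was lost in 5 of 14 alternatives, with adjusted p up to 0.0134. *Tk1*, the cytosolic thymidine kinase of dividing cells, was at 111, 125, 114 and 119 CPM and 141, 139.5, 142 and 141 CPM (log2 fold change 0.26 ± 0.057 (SE), adjusted p = 0.00171). Its GC7 libraries lay close together, above all Mock libraries, and the adjusted p was 0.0107 without Mock replicate 1 and 0.0102 without Mock replicate 3. *Dck*, for deoxycytidine kinase, was at 125, 113, 134 and 125 CPM and 93.3, 95.0, 112 and 97.5 CPM (log2 fold change -0.32 ± 0.075 (SE), adjusted p = 0.00280). Its groups came close, at 113 CPM in Mock replicate 2 and 112 CPM in GC7 replicate 3. The adjusted p of *Dck* was 0.0127, 0.0123 and 0.0121 without GC7 replicates 1, 2 and 4, and 0.0274 with library totals.

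The other 4 salvage genes did not pass the threshold. *Hprt*, which returns hypoxanthine and guanine to IMP and GMP, ranged from 238 to 271 CPM in Mock and from 224 to 233 CPM in GC7 libraries (log2 fold change -0.12 ± 0.060 (SE), adjusted p = 0.0978). *Tk2*, the mitochondrial thymidine kinase, ranged from 23.0 to 27.6 CPM and from 21.3 to 26.9 CPM (log2 fold change -0.081 ± 0.090 (SE), adjusted p = 0.459). The values of *Hprt* did not overlap between the groups although the test did not call it, and those of *Tk2* did. For the uridine-cytidine kinases, *Uck1* ranged from 50.6 to 56.9 CPM in Mock and from 58.8 to 64.3 CPM in GC7 libraries (log2 fold change 0.18 ± 0.063 (SE), adjusted p = 0.0275), and *Uck2* from 235 to 253 CPM and from 173 to 225 CPM (log2 fold change -0.23 ± 0.080 (SE), adjusted p = 0.0285). The values of both kinases did not overlap between the groups and lay in opposite directions.

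As a ratio within libraries, *Tk1* to *Tk2* rose by 0.34 and *Uck1* to *Uck2* by 0.41 on the log2 scale (two-sided exact permutation tests, p = 0.0286, adjusted p = 0.0343 for each over the 6 pairs tested). For *Uck1* to *Uck2* this p was fixed, since both kinases lay apart between the groups in opposite directions. *Uck1* made up 31.0% ± 1.72 (SD, n = 4) of the summed CPM per kb of its pair in Mock and 37.4% ± 3.83 (SD, n = 4) in GC7 libraries, where GC7 replicate 3 had the highest share, 42.4%. Exons of *Uck1* overlap those of *Pomt1*, and exons of *Tk1* those of *Afmid*, on the other strand. The stretch before *Uck1* (chr2:32260080-32260139, minus strand) is shown for its NRF1 motif, from position -38, which it shares with *Ctps*.
Uck1: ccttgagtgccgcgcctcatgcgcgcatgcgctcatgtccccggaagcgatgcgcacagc

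Nucleotide kinases bring nucleoside monophosphates and diphosphates to the triphosphate level. *Nme1*, for a nucleoside diphosphate kinase, was at 26.1, 34.5, 29.3 and 28.3 CPM in Mock and 43.4, 39.6, 38.6 and 44.7 CPM in GC7 libraries (log2 fold change 0.49 ± 0.090 (SE), adjusted p = 0.000538). *Guk1*, for guanylate kinase, was at 25.2, 34.3, 28.8 and 26.9 CPM and 34.6, 34.9, 39.7 and 37.8 CPM (log2 fold change 0.35 ± 0.095 (SE), adjusted p = 0.00751). The groups did not overlap for either gene, but for *Guk1* Mock replicate 2 (34.3 CPM) and GC7 replicate 1 (34.6 CPM) were nearly level, and its call was lost in 7 of 14 alternatives, with adjusted p up to 0.0312. *Nme2* held 221 counts in all 8 libraries (0.979 to 1.75 CPM) and was not tested. Its level is uncertain, because 3 pseudogenes with over 97% identity held 237, 107 and 92 counts and because *Nme1* and *Nme2* both share exons with the readthrough gene *Gm20390*, which held 0 counts. The stretch before *Nme1* (chr11:93968273-93968332, minus strand) is shown for its E-box.
Nme1: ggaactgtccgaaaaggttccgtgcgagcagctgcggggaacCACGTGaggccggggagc

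By letters, 2 of the 6 genes with an E-box (*Atic*, *Dtymk*, *Impdh2*, *Nme1*, *Paics* and *Tyms*) were higher and none was lower. Both genes with E2F letters (*Ppat* and *Prps2*) and 1 of the 2 with the NRF1 motif (*Ctps*, not *Uck1*) were higher. Of the 12 genes with NF-Y letters 6 were higher and 1 was lower, and of the 24 tested genes with a GC box 10 were higher and 3 were lower, beside 14 higher and 4 lower of all 32 tested genes. These counts are descriptions and were not tested. *Myc*, whose product is known to bind the E-box letters, was at 249.6, 248, 219 and 229.9 CPM in Mock and 157, 139, 86.2 and 142 CPM in GC7 libraries (log2 fold change -0.85 ± 0.14 (SE), adjusted p = 0.000267). GC7 replicate 3 was the lowest of all libraries for *Myc*, and the part of this value in the changes of the nucleotide genes was not tested.

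**Figure D4:**
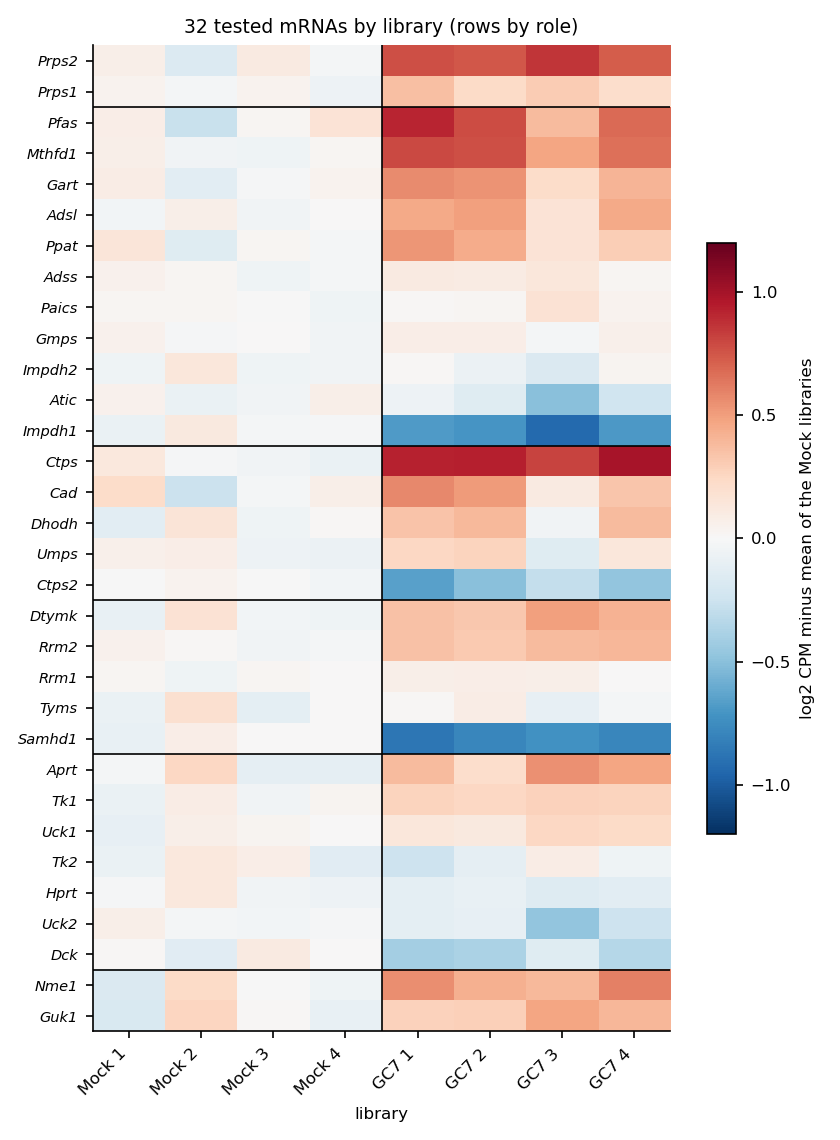
Colours give the log2 CPM of each tested gene (rows, in blocks by role) in each library (columns) minus the mean of the Mock libraries, so red is higher and blue is lower. The GC7 columns of *Ctps*, *Prps2* and *Pfas* are red and those of *Samhd1* and *Impdh1* blue in all 4 libraries, with GC7 replicate 3 paler than the others for *Pfas*, *Mthfd1*, *Gart*, *Adsl* and *Ppat*.

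Per kb of exon, the most abundant of the 33 mRNAs in Mock libraries were *Hprt* (193 ± 11.9 CPM per kb, SD, n = 4), *Rrm2* (113 ± 3.43), *Impdh2* (111 ± 7.20) and *Paics* (85.3 ± 2.12), and the least abundant that passed the filter was *Dhodh* (3.42 ± 0.290). *Rrm2* and *Impdh2* did not differ beyond their spread. In GC7 libraries the order of the first 4 was the same, with *Hprt* at 177 ± 2.92 and *Rrm2* at 145 ± 3.45 CPM per kb. *Samhd1* went from rank 6 to rank 11, *Impdh1* from rank 8 to rank 17, *Ctps* from rank 23 to rank 13 and *Prps2* from rank 20 to rank 10. These levels rest on the exon length of all transcripts of a gene together, so they understate genes whose long transcripts are little used.

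**Figure D5:**
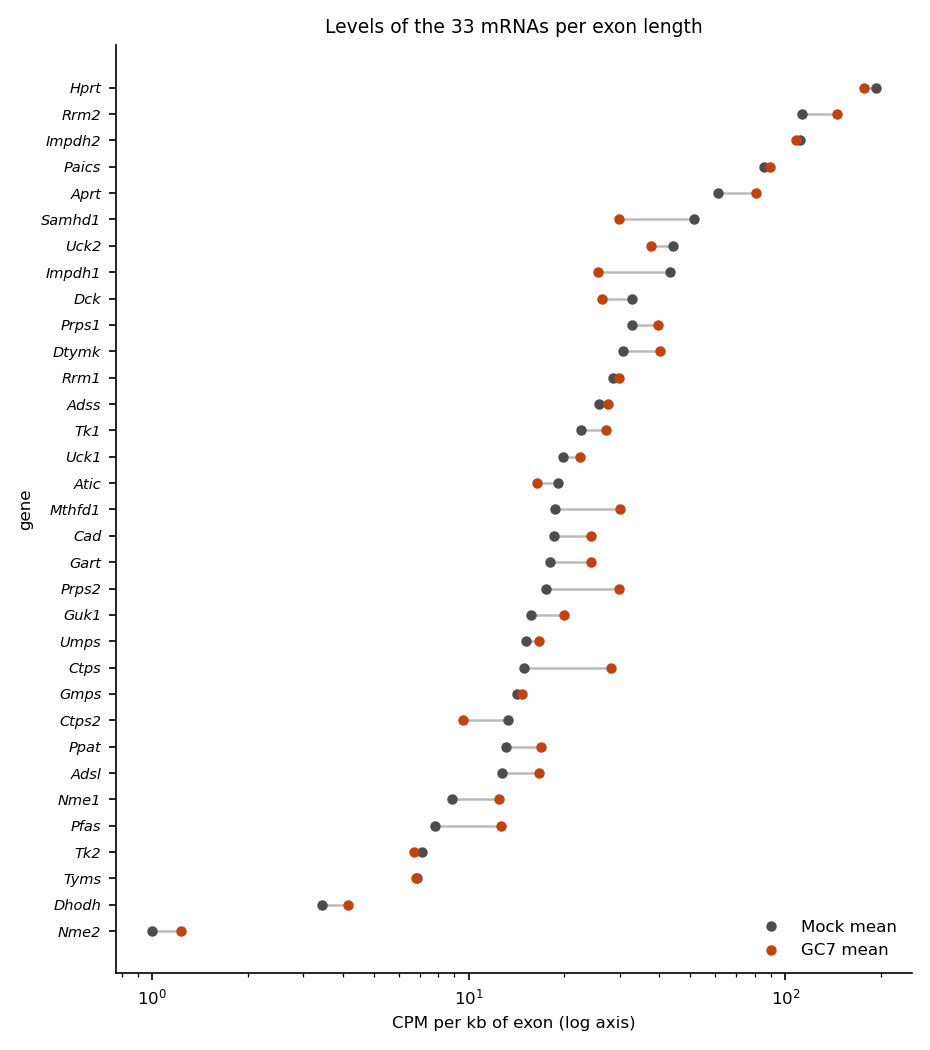
The mean level per kb of exon (x axis, log scale) is shown for each of the 33 genes (y axis) in Mock (grey) and GC7 (orange) libraries, joined by a line. Levels run from *Nme2* at the bottom to *Hprt* at the top (193 CPM per kb in Mock), and the longest lines belong to *Ctps*, *Impdh1*, *Samhd1* and *Prps2*.

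The wider set of 72 other genes of nucleotide metabolism (kinases and further salvage, breakdown, transport and folate enzymes) gave 59 tested genes, of which 20 were higher, 11 were lower and 5 passed a 2-fold change, as 8.48% of all genes tested did. The shares that were higher (33.9%) and lower (18.6%) stood beside 23.0% and 23.5% of all genes tested. Their median log2 fold change was 0.16. In further salvage and kinases, 7 of 21 tested genes were higher (33.3%) and 4 were lower (19.0%). *Ak1*, for the cytosolic adenylate kinase, was at 1.44, 0.680, 1.58 and 0.752 CPM in Mock and at 16.5, 16.5, 24.0 and 16.0 CPM in GC7 libraries (log2 fold change 4.04 ± 0.23 (SE), adjusted p = 3.51e-08), and *Ak4*, for a mitochondrial adenylate kinase, at 87.0, 79.8, 78.8 and 82.5 CPM and 32.2, 32.1, 18.5 and 24.4 CPM (log2 fold change -1.61 ± 0.14 (SE), adjusted p = 1.21e-06). These changes were opposite and larger than those of any of the 33 genes, although *Ak1* passed the filter on low counts through its GC7 libraries alone and so had to differ. *Ak1* is counted among the 20 higher genes and the 5 past a 2-fold change. The 20 also hold the transporter gene *Slc29a2*, which passed the filter in the same way. *Pnp*, for purine nucleoside phosphorylase, fell (-0.54, adjusted p = 0.000476), and *Dut*, which makes dUMP for TYMS, did not pass the threshold (-0.12, adjusted p = 0.240).

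Of the 17 tested breakdown genes, 3 were higher (17.6%, beside 23.0% of all genes) and 6 were lower (35.3%, beside 23.5%), among them *Nudt5* for an ADP-sugar pyrophosphatase (1.10, adjusted p = 1.22e-08), *Ampd2* for AMP deaminase (0.76, adjusted p = 2.87e-06) and *Nt5c* for a deoxynucleotidase (-0.70, adjusted p = 1.98e-05). Of the 8 tested transporters 5 were higher (62.5%, beside 23.0% of all genes) and none was lower. Among the 5, *Slc29a2* (2.25 to 2.97 CPM in Mock) passed the filter on low counts through its GC7 libraries alone. It therefore had to lie higher in GC7 and adds nothing to that share. *Slc29a1* for an equilibrative nucleoside transporter was at 0.39 (adjusted p = 0.000107) and *Slc43a3* for a purine base transporter at 0.56 (adjusted p = 1.11e-05). Of the 13 tested folate genes 5 were higher (38.5%) and 1 was lower (7.69%). The mitochondrial enzymes moved apart. *Mthfd2* went from 163, 165, 157 and 159.7 CPM to 253, 263, 243 and 254 CPM (log2 fold change 0.65 ± 0.055 (SE), adjusted p = 8.61e-07), whereas *Mthfd1l*, which releases formate for the cytosolic enzyme MTHFD1, went from 282, 268, 265 and 279 CPM to 154, 149, 109.7 and 131 CPM (log2 fold change -1.01 ± 0.094 (SE), adjusted p = 2.11e-06). *Aldh1l2*, for a mitochondrial formyltetrahydrofolate dehydrogenase, was at 6.67, 2.68, 5.97 and 7.42 CPM and 18.6, 19.3, 13.8 and 15.6 CPM (log2 fold change 1.58 ± 0.23 (SE), adjusted p = 8.99e-05).

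Of 42 S phase genes 7 were higher (16.7%) and 10 were lower (23.8%), with a median log2 fold change of -0.047. Of 26 G2/M genes 2 were higher (7.69%) and 5 were lower (19.2%), with a median of -0.039. The shares of lower genes in both lists were near or below the 23.5% of all genes, and the shares of higher genes were below 23.0%. *Pcna*, the sliding clamp of replication, was at 557, 609, 511 and 537 CPM in Mock and 436, 438, 430.1 and 428 CPM in GC7 libraries (log2 fold change -0.36 ± 0.066 (SE), adjusted p = 0.000579), *Mcm7* of the replicative helicase fell (-0.48, adjusted p = 1.31e-05) and *Gins3* of the GINS complex at the replication fork rose (0.63, adjusted p = 0.000129). Of 11 tested genes of the MYC network, 1 was higher (9.09%) and 6 were lower (54.5%, beside 23.5% of all genes), including *Mxi1*, for a MAX-binding antagonist of MYC (-1.56, adjusted p = 7.60e-10). These differences between lists were not tested.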

How the data were processed

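mRNA of OT-1 CD8+ T cells was measured in 4 Mock and 4 GC7 libraries, grouped by the sample labels. The authors trimmed reads with Cutadapt, aligned them to GRCm38 with STAR and used featureCounts for the counts of each Ensembl gene, and the deposited values are raw counts per gene and library. The strand setting and the handling of reads with several matches are not given in the sources used here, so close copies were looked for with BLAST (version 2.17.0, at least 400 bases and 90% identity). Symbols were matched for 55450 of 55536 identifiers.

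The genes tested had over 3 CPM in 4 or more libraries (52.6 counts in the smallest and 75.9 in the largest library). The test was made in edgeR (version 4.0.16, R version 4.3.3) with TMM factors, the quasi-likelihood F test, the group as the only term and Benjamini-Hochberg adjustment over 11189 genes, with an FDR threshold of 0.01. The SE is the log2 fold change divided by the square root of F. CPM values are TMM-scaled. The biological coefficient of variation was 0.0918. Isoenzyme ratios were compared by two-sided exact permutation tests. Alternatives were RLE factors, library totals, no filter, filterByExpr, DESeq2 (version 1.42.0), the replicate number as a block, and each library left out in turn.

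On simulated counts for GC7 against Mock (11076 genes), the test called 128 of 133 genes changed 2-fold or more, 53 of 67 changed 1.5-fold and 1 other gene. Only 200 genes were changed in the simulation and none by less than 1.5-fold, whereas 46.6% of all genes tested were called here. These rates therefore do not carry over to smaller changes or to data with many changed genes. The genes and lists were chosen with earlier results of these data known. All 33 genes are named, with values per library for those past the threshold and for 7 control points (*Ppat*, *Cad*, *Impdh2*, *Ctps*, *Tyms*, *Rrm2*, *Rrm1*), and from each other list at most the 4 largest increases and decreases. *Dut*, *Rrm2b*, *Pcna*, *Slc29a1* and the cell type markers are exceptions, and some genes of the other lists are not reported here. No source used here names molecular identifiers, so the depth gives counting error only. Promoter sequences are from RefSeq (GRCm38.p6).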

Additional observations from a re-analysis of the deposited data

Results flagged for a closer look

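In 114 groups of 4 libraries (the genes and ratios named here), 10 had a library far from the other 3 (Dixon's ratio of its gap to the whole range), where chance gives about 1 in 20, or 5.7. GC7 replicate 3 stood apart in 5 of them. It was the lowest GC7 library for *Adsl* (ratio 0.857), *Dhodh* (0.872) and *Impdh1* (0.897), and the highest for *Paics* (0.854) and *Ak1* (0.942). Mock replicate 2 was the highest Mock library for *Impdh2* (0.963) and *Mcm7* (0.985). Mock replicate 1 was the highest for *Uck2* (0.876) and for the ratio of *Ctps* to *Ctps2* (0.847), and GC7 replicate 4 was the lowest for *Rrm1* (0.845). The calls of *Adsl*, *Impdh1* and *Mcm7* held without these libraries, *Ak1* did not pass the filter without GC7 replicate 3, and *Dhodh* passed the threshold without GC7 replicate 3 (adjusted p = 0.00222).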

How the results depend on the processing

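Under RLE factors the same 14 genes were higher and the same 4 lower, and under no filter, filterByExpr and DESeq2 15 were higher, with the 14 among them, and the same 4 lower. Without each library in turn, 10 to 15 were higher and 3 or 4 were lower, and no gene of the 33 passed a 2-fold change. With library totals 1 gene, *Ctps*, passed it. The replicate numbers in the labels were not treated as pairs, since the correlations of same-numbered libraries' deviations were 0.27, -0.12, 0.20 and -0.18. In the fit with a replicate block 14 genes were higher, 13 of them the same, and the same 4 were lower, since *Cad* passed the threshold (adjusted p = 0.00877) and *Aprt* did not (0.01003). Signs turned for genes near no change only. *Impdh2* was at 0.049, *Tk2* at 0.014 and *Tyms* at 0.088 with library totals, and without each library in turn *Tyms* ranged from -0.058 to 0.058, being above 0 without Mock replicate 2, GC7 replicate 3 or GC7 replicate 4. Without each library in turn, the ratio of *Prps1* to *Prps2* differed by -0.53 to -0.45, *Impdh1* to *Impdh2* by -0.73 to -0.69, *Tk1* to *Tk2* by 0.29 to 0.40, *Uck1* to *Uck2* by 0.31 to 0.48 and *Rrm2* to *Rrm2b* by 0.21 to 0.35. A prior count of 0.5 CPM moved none of them by more than the spread between replicates. *Ak1* was not tested without a GC7 library, since it then passed the filter in 3 libraries only. The causes were not tested.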
